A study of Mus musculus with 272 samples.

Results

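Promoters that carried the repressive histone mark H3K27me3 without the promoter mark H3K4me3 were collected from the chromatin maps of mouse muscle stem cells (MuSCs). The members were chosen by the values of the H3K27me3 and H3K4me3 libraries themselves. A protein-coding gene of GENCODE M21 (mm10) was a member if an H3K27me3 peak lay within 3 kb of any of its transcription start sites in both replicates, and H3K4me3 peaks did not lie in the same windows in both replicates. This held for 210 of 21938 protein-coding genes, or 0.957%. Of these, 133 had no H3K4me3 peak in either replicate, and the remaining 77 had one in 1 replicate and are given separately below. The genes they are set beside were 845 with both marks, 12483 with H3K4me3 alone and 8400 with neither. In these classes a mark was counted only where both replicates had it.

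The paper sorted MuSCs as GFP+ cells from hindlimb muscle of Pax7Cas9 mice. In these mice a Pax7-driven Cre switches on a Cas9-EGFP transgene at Rosa26. The methods for the chromatin maps name no other source. The 8 libraries are therefore taken to come from such cells and to share Cas9 and EGFP. Open chromatin was mapped by ATAC-seq and the histone marks H3K4me3, H3K27me3 and H3K27ac by ChIP-seq, each in 2 replicates. H3K27ac is a mark of active promoters and enhancers. No treatment is labelled for these libraries, and age and strain are not given in the labels used here. Whether the replicates came from separate mice is not given either, so the spread between them may be technical. The other samples of the 272 in the series were not analysed here.

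H3K27me3 is set on histone H3 by Polycomb repressive complex 2 and accompanies silencing of developmental genes outside the tissue that uses them. In embryonic stem cells many such promoters carry H3K4me3 as well and are called bivalent. CpG islands, stretches of DNA rich in the CG dinucleotide, are the usual place of both marks in mammals.

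The mark was listed as short peaks, and their sequences ranged from dense in CG to free of it. The following replicate 1 peaks are shown because they were among those with the highest and the lowest ratio of observed to expected CG, out of the strongest peaks of the named genes that were at most 300 bp wide and touched no untranslated region. They are given on the plus strand of mm10, with every CG in capitals.
Foxb1, chr9:69762064-69762228: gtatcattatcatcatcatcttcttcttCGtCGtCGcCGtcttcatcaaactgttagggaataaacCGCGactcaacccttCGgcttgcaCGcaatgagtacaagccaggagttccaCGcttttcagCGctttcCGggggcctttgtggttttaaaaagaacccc
Foxi3, chr6:70957173-70957262: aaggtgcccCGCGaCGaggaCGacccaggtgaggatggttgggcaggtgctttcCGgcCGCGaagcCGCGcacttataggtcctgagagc
Hoxb1, chr11:96365106-96365258: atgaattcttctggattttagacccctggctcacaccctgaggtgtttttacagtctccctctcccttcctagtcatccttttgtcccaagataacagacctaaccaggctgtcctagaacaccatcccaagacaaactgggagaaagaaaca
Grm6, chr11:50851771-50851888: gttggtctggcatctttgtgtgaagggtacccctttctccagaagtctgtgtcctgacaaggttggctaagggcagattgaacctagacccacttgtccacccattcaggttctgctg
The *Foxb1* peak held 11 CG, a ratio of 1.17, and its summit lay 1207 bp upstream of the start, in an intron of the antisense gene *B230323A14Rik*. The *Foxi3* peak overlapped a coding exon of the gene and held 9 CG, a ratio of 0.953. No CG was present in the *Hoxb1* peak, which was intergenic with its summit 614 bp upstream of the start. The *Grm6* peak, which overlapped a noncoding exon annotated to *Grm6* and *Gm12660*, held no CG either.

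At the members, H3K27me3 was often listed as more than 1 short peak. All listed H3K27me3 peaks had median widths of 176 bp in replicate 1 and 180 bp in replicate 2, with median folds of 3.93 and 3.76. The part of the peak calling in this division into pieces, and in the summed widths, was not tested. Fold enrichment is the authors' ratio of the signal at the summit of a peak to its local background, and the strongest peak of each promoter is given. Its median over the 210 genes was 4.50 in replicate 1, with a range of 2.58 to 7.88, and 4.79 in replicate 2, with a range of 2.74 to 11.98. These values took only 25 and 29 distinct steps, so small differences between genes are not resolved. The median number of peaks per promoter was 2 in replicate 1 and 4 in replicate 2, and their summed width had medians of 364 and 1038 bp. A q-value of at most 0.05 was reached in 146 members in replicate 1, in 197 in replicate 2 and in 140 in both. In 7 members it was reached in neither replicate. Members named below that missed it in replicate 1 include *Bmp7*, *Gad1*, *Rbfox3*, *Chat*, *Slc18a3*, *Skap1*, *Nlrp6*, *S1pr5*, *Rnf207*, *Tnfrsf25* and *Gm28230*. *Tnfrsf25* and *Gm28230* missed it in replicate 2 as well, and *Zfp853* missed it in replicate 2 only. In 172 members, or 81.9%, a peak of one replicate overlapped a peak of the other. Members named below without such overlap include *Rbfox3*, *Chat*, *Slc18a3*, *Cacna1s*, *Pcdh8*, *Asic2*, *Hes3*, *Skap1*, *Tnfrsf25* and *S1pr5*. Genes with both marks had the same median folds, 4.50 and 4.79, with summed widths of 475 and 1119 bp. Among all protein-coding genes, 4.81% had H3K27me3 in both replicates, which is a background the rule itself uses and from which nothing is read.

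**Figure D1:**
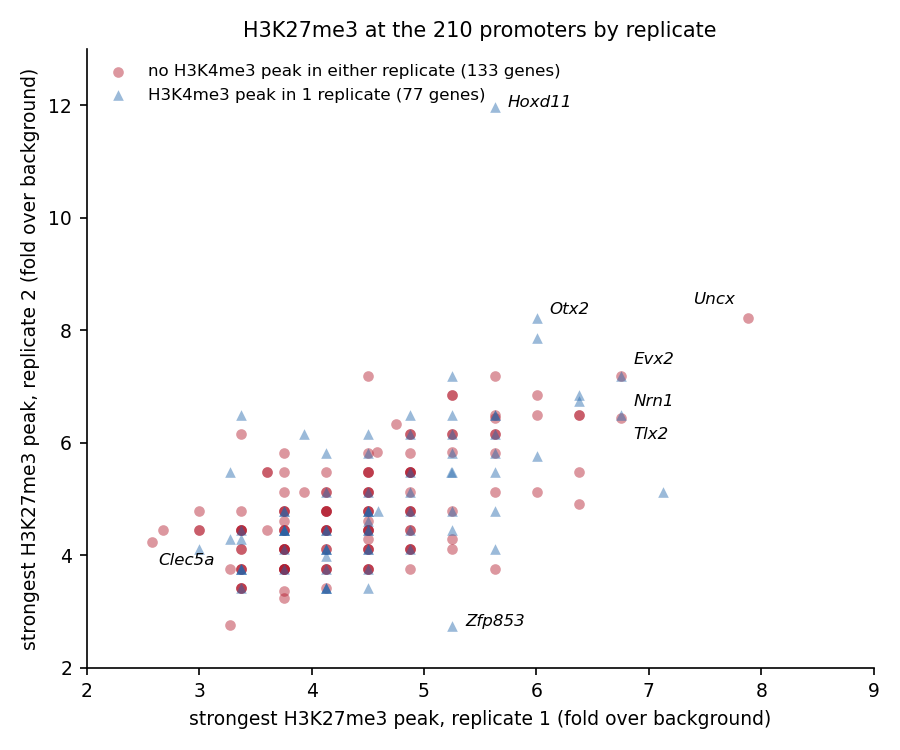
Fold enrichment over background of the strongest H3K27me3 peak of each of the 210 promoters in replicate 1 (x axis) and replicate 2 (y axis), with circles for the 133 genes without an H3K4me3 peak and triangles for the 77 genes with one in 1 replicate (darker where points coincide). Most promoters sit near the medians of 4.50 and 4.79, *Uncx* is the farthest right, *Hoxd11* is the highest and *Clec5a* is the lowest in replicate 1.

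Among the 133 promoters without H3K4me3 in either replicate, the 10 with the highest H3K27me3 by the lower replicate were 9 transcription factor genes and 1 transporter gene. *Uncx*, a homeobox gene of the developing vertebrae, had a fold of 7.88 in replicate 1 and 8.21 in replicate 2. *Evx2*, an even-skipped homeobox gene beside the Hoxd cluster, had 6.75 and 7.19. *Tlx2*, a homeobox gene of the enteric nervous system, had 6.75 and 6.44. These 3 promoters were also among the widest, with 4324 and 6505 bp of H3K27me3 peaks at *Uncx*, 5246 and 7323 bp at *Evx2*, and 3788 and 4897 bp at *Tlx2*. *Tcf21*, a bHLH factor of mesenchyme in many organs, had 6.38 and 6.503. *Gsx2*, a forebrain homeobox gene, had 6.00 and 6.85, and the forkhead gene *Foxb1* had 6.00 and 6.503. *Evx1* and *Foxi3* both had 5.63 in replicate 1, with 7.19 and 6.503 in replicate 2. The transporter was *Slc32a1*, which loads GABA and glycine into synaptic vesicles, with 5.63 and 6.44. All 10 had H3K27me3 peaks that overlapped between the replicates.

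The widest H3K27me3 by the lower replicate was found at *Hmx2*, a homeobox gene of the inner ear, with 14 and 13 peaks that summed to 7141 and 11897 bp. *Otx2*, a homeobox gene of the anterior brain, had the most pieces, 15 in replicate 1 and 22 in replicate 2, which summed to 5699 and 8817 bp. *Evx2* (above), *Hoxd11* with 4938 and 8775 bp, and *Evx1* with 4402 and 7150 bp completed the 5 widest. Of these, *Hmx2*, *Otx2* and *Hoxd11* had H3K4me3 in replicate 1 only, with folds of 4.33, 3.59 and 3.41. Some H3K27me3 peaks of *Hmx2* also lay in the windows of *Bub3* and *Hmx3*, which had both marks. At the other end, 83 members rested on a single peak in replicate 1 and 21 in replicate 2. *Clec5a*, a lectin receptor of myeloid cells, had the lowest fold in replicate 1, 2.58, with 4.25 in replicate 2. Its peaks nonetheless had −log10 q-values of 19.8 and 11.5, so that the height and the q-value ranked this promoter differently.

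H3K27me3 lay downstream of the start in most members. The summit of the strongest peak lay at a median of 301.5 bp downstream of the nearest start site in replicate 1 and 304.5 bp in replicate 2. It was downstream in 145 and 149 of the 210 members, and within 500 bp in 96 and 103. A peak lay over a start site in 70 members in replicate 1 and in 125 in replicate 2. The members whose farther H3K27me3 peak lay nearest the edge were *S1pr5* at 2872 bp and *Kcns1* at 2867 bp, and the genes just outside it were *Skor2* at 3048 bp and *Matn4* at 3101 bp. In all, 8 members had their farther peak more than 2 kb away.

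**Figure D2:**
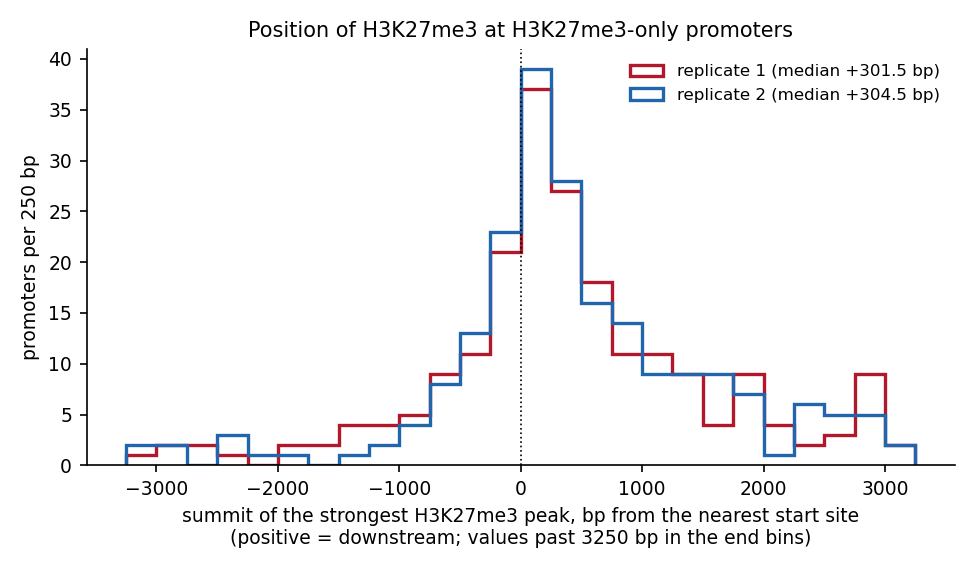
Distance in bp from the summit of the strongest H3K27me3 peak to the nearest start site of the gene (x axis, positive downstream, 250 bp bins) against the number of promoters (y axis), for replicate 1 (red line) and replicate 2 (blue line). Both replicates peak just downstream of the start, with medians of 301.5 and 304.5 bp.

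The 77 members with H3K4me3 in 1 replicate had it in replicate 1 in 69 genes and in replicate 2 in 8, among them *Gad2*, *Pcdh8* and *Flt3*. The background of H3K4me3 in both replicates was 60.8% of all protein-coding genes. The H3K4me3 peaks at these members were low. The strongest had a median fold of 3.95 in the 69 genes and 3.41 in the 8. Genes with both marks had medians of 10.6 in replicate 1 and 8.42 in replicate 2. The rule itself requires H3K4me3 in both replicates for that class, so nothing is read from this difference. Among genes with neither mark, 398 had H3K4me3 in replicate 1 only and 22 in replicate 2 only, with median folds of 3.77 and 3.23. Low folds and more cases in replicate 1 were thus not particular to the members. At the members, an H3K4me3 peak lay over a start site in 31 of the 69 genes and 3 of the 8. The highest was at *Sp6*, a zinc finger factor of skin and teeth, with 18.1 in replicate 1. That peak lay 2857 bp from the start, and the nearest replicate 2 peak lay at 3124 bp, outside the window, so *Sp6* was a member only through the window limit. *Duox2*, which makes hydrogen peroxide in the thyroid, followed with 6.82, and its nearest replicate 2 peak lay at 3111 bp. *Mast1*, a kinase gene of neurons, had 6.10, *Nmnat2*, an enzyme gene of NAD synthesis in axons, 5.56, and *Nlrp6*, an innate immune sensor, 5.38. At these 3 genes the nearest H3K4me3 peak of replicate 2 lay 8456, 50270 and 11935 bp away.

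The 133 other members had their nearest H3K4me3 peak at a median of 28272 bp in replicate 1 and 30520 bp in replicate 2. In 10 of them a peak came within 5 kb in both replicates. The closest were *Evx1*, with 3026 and 3101 bp, *Grhl3*, an epidermal factor, with 3130 and 3149 bp, *Evx2*, with 3227 and 3550 bp, and *Bsx*, a hypothalamic homeobox gene, with 3406 and 3413 bp. The absence of H3K4me3 at these promoters therefore refers to the 3 kb window.

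Open chromatin, which the rule did not use, was found within 3 kb of a start site of many members but less regularly than at genes with H3K4me3. An ATAC-seq peak lay in the promoter windows of 174 members (82.9%) in replicate 1 and of 130 (61.9%) in replicate 2, a mean of 72.4% ± 14.8 (SD, n = 2). In both replicates it was found in 122 members, or 58.1%, where 67.8% of all protein-coding genes had one. The mean was 97.5% ± 1.42 for genes with both marks, 99.2% ± 0.306 for genes with H3K4me3 alone and 25.2% ± 6.00 for genes with neither (SD, n = 2). In either replicate the members stood below both classes with H3K4me3 and above the genes with neither mark, and the ranges of the replicates did not overlap between these classes. No test was made over genes, which are not replicates. The median number of start sites was 2 for members, 3 for genes with both marks, 5 for H3K4me3 alone and 2 for neither. The length searched thus differed between classes, and its part in the ATAC-seq and H3K27ac shares was not tested. The 133 members without H3K4me3 had ATAC-seq peaks in 75.2% and 50.4%, and the 77 with H3K4me3 in 1 replicate had them in 96.1% and 81.8%.

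The ATAC-seq peaks at members had median folds of 7.84 and 5.77, against 14.4 and 13.2 for genes with H3K4me3 alone. *Bmp7*, a secreted growth factor gene, had the highest folds of the members with a peak in both replicates, 65.1 and 51.4. Its H3K27me3 folds were 3.75 and 5.48, and its nearest H3K4me3 peak lay 59364 and 59420 bp away. *Lhx3*, a homeobox gene of motor neurons and pituitary, had ATAC-seq folds of 10.5 and 13.8, and *Bsx* had 13.2 and 11.7. *Bmp7*, *Lhx3* and *Bsx* were picked after their values were seen. None of the 3 had an H3K4me3 peak in its windows. At the opposite end, 28 members had no ATAC-seq peak in either replicate. Of these 28, 10 were in the transcription factor lists described below, which held 68 of all 210 members (32.4%), a similar share. The 28 included *Evx2*, *Hoxb13*, *Hoxb1*, *Chat*, *Slc18a3*, *Cyp24a1*, *Kcns1*, *Skap1* and *Clec5a*.

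The replicates of ATAC-seq did not agree on some tall peaks. Of 56 members with a fold of at least 10 in replicate 1, 12 had no promoter peak in replicate 2, while all 23 members with such a fold in replicate 2 had a peak in replicate 1. The share was 21.4% for members, 0.897% for genes with both marks, 0.157% for genes with H3K4me3 alone and 30.3% for genes with neither mark. The tallest of the 12 was at *Mpped1*, with a fold of 68.4 and a width of 115 bp, followed by *Wnt9b* with 27.96 and 119 bp. Replicate 1 listed 140937 ATAC-seq peaks with a median width of 117 bp and replicate 2 listed 94574 with 184 bp. The part of this difference in the ATAC-seq shares was not tested.

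H3K27ac was almost missing from the members. A single gene, *Nmnat2*, or 0.476%, had an H3K27ac promoter peak in either replicate, with folds of 10.2 and 5.62. In both replicates such peaks were found at 46.6% of all protein-coding genes, 79.8% of genes with H3K4me3 alone, 20.5% of genes with both marks and 1.14% of genes with neither. *Nmnat2* was also 1 of the 77 members with H3K4me3 in 1 replicate, with ATAC-seq folds of 13.02 and 12.2. None of the 133 members without H3K4me3 had an H3K27ac peak in either replicate. The nearest H3K27ac peak to the members lay at a median of 54787 bp in replicate 1 and 59670 bp in replicate 2.

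**Figure D3:**
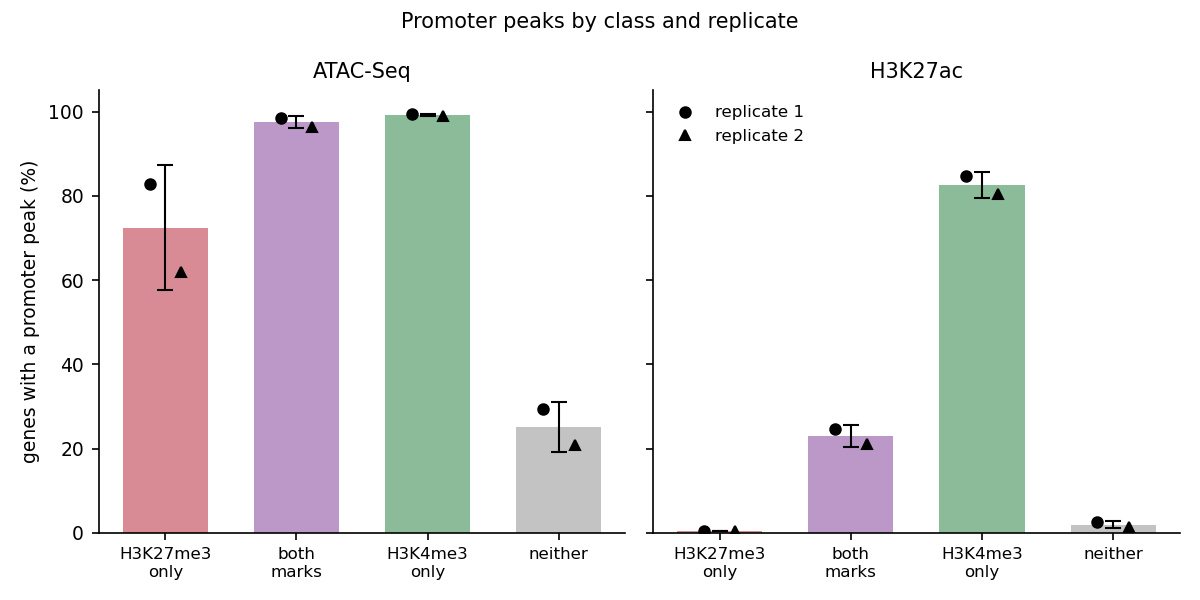
Percentage of genes with an ATAC-seq (left) or H3K27ac (right) promoter peak in each class, with bars for the mean of 2 replicates, lines for the SD, and a circle and a triangle for replicates 1 and 2. The H3K27me3-only promoters stand between genes with neither mark and genes with H3K4me3 for ATAC-seq (82.9% and 61.9%), and at 0.476% for H3K27ac.

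Transcription factors of development made up much of the group. In the lists of homeobox and of other developmental transcription factors there were 68 members, 32.4% of the 210, whereas these lists hold 2.00% of all protein-coding genes. Of 237 homeobox genes, 36 (15.2%) were members, 102 (43.04%) had both marks, 40 had H3K4me3 alone and 59 had neither. *Uncx*, *Evx2*, *Tlx2* and *Hmx2* were the highest of the 36, and 29 of the 36 had no H3K4me3 in either replicate. ATAC-seq peaks in both replicates were found at 14 of the 36 homeobox members. Of 204 other developmental factors, 32 (15.7%) were members and 75 had both marks, and 19 of the 32 had ATAC-seq peaks in both replicates. *Tbr1*, a factor of cortical neurons, had H3K27me3 folds of 6.75 and 7.19 and an H3K4me3 fold of 3.95 in replicate 1 only. *Nr5a1*, the steroidogenic factor of adrenal and gonad, had 6.38 and 6.75, also with an H3K4me3 fold of 3.95 in replicate 1 only. *Tcf21* and *Foxb1* (above) were the next highest of this list.

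Secreted signals followed. Of 253 signalling ligands and receptors, 15 (5.93%) were members, 41 had both marks and 121 had H3K4me3 alone. *Wnt1* had H3K27me3 folds of 5.24 and 5.48, and *Wnt9b* had 4.50 and 4.79. Both encode Wnt ligands and had H3K4me3 in replicate 1 only, with folds of 2.78 and 4.13. The hedgehog ligand genes *Dhh*, with 5.25 and 4.45, and *Ihh*, with 4.50 and 4.45, were members too. At *Dhh* an H3K4me3 peak with a fold of 4.67 was present in replicate 1 only, and at *Ihh* the nearest one lay 68831 and 95827 bp away. *Fgf3*, *Fgf4*, *Nodal*, *Bmp7* and *Grem1* belonged to the same list, and *Nodal* and *Grem1* had H3K4me3 in replicate 1 only.

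Of 377 ion channels, transmitter receptors and transporters, 19 (5.04%) were members, and 14 of these had no H3K4me3 in either replicate. Among the highest were *Slc32a1* (above), the glutamate receptor gene *Grm6* with 4.50 and 5.13, and the acid-sensing channel gene *Asic2* with 4.88 and 4.45. At *Grm6* an H3K4me3 peak with a fold of 3.95 was present in replicate 1 only. Of the 10 neuron markers, *Gad1*, which makes GABA, and *Rbfox3*, which encodes the nuclear antigen NeuN, were members, 1 had both marks, 3 had H3K4me3 alone and 4 had neither. ATAC-seq peaks in both replicates were found at 8 of the 10. *Gad1* had H3K27me3 folds of 3.75 and 4.79 in 7 and 13 peaks. *Rbfox3* had 3.002 and 4.79.

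Adhesion and matrix genes gave 6 members of 403 (1.49%), close to the 0.957% of all protein-coding genes. *Cdh1*, which encodes E-cadherin, had 4.88 and 6.16 and its nearest H3K4me3 peak 78662 and 78743 bp away. *Cldn7* had 5.25 and 6.16 and *Cldn3* had 4.88 and 4.79, both encoding claudins of tight junctions and both with H3K4me3 in replicate 1 only. *Pcdh8*, a protocadherin gene, had 5.25 and 4.79. All 6 had ATAC-seq peaks in both replicates. The metabolic, immune, germline and zinc finger lists held members at shares below that of all protein-coding genes. Of 353 metabolic genes, 2 (0.567%) were members, *Cyp27b1* with 5.63 and 5.13 and *Cyp24a1* with 4.50 and 5.48. They encode enzymes that activate and break down vitamin D. All H3K27me3 peaks of *Cyp24a1* also lay in the windows of *Pfdn4*, which had both marks. *Nlrp6*, *Tnfrsf25* and *Clec5a* were the 3 members among 500 immune genes. *4930447C04Rik*, with 5.63 and 6.16, and *1700013F07Rik*, with 3.38 and 3.76, were the 2 of 449 germline genes. The homeobox member *Six6* had the same folds as *4930447C04Rik*, and all H3K27me3 peaks of *Six6* also lay in the windows of *4930447C04Rik*. All peaks of *1700013F07Rik* also lay in the windows of *5330417C22Rik*, another member. The shared peaks cannot be assigned to one gene of either pair. *Zfp853*, with 5.25 and 2.74, was the 1 of 467 zinc finger genes. H3K4me3 was present in replicate 1 only at *1700013F07Rik* and *Zfp853*.

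Genes of mature muscle gave 2 members of 82 sarcomere and contraction genes (2.44%), among them *Cacna1s*. *Cacna1s* encodes the voltage sensor of the transverse tubule and had 4.13 and 3.76. All of its H3K27me3 peaks lay in the windows of the neighbouring bHLH gene *Ascl5* as well, also a member, so the mark cannot be assigned to one of them. None of the 13 MuSC markers was a member, and all 13 had H3K4me3 in both replicates, 12 of them with H3K27ac as well. None of 10 fibro-adipogenic, 10 endothelial and 9 blood cell markers was a member. H3K4me3 in both replicates was found at 5, 5 and 4 of these marker genes, and the part of other cells in the results was not tested. No member was among 1541 chemosensory receptors, 263 keratin, defensin and skin barrier genes or 35 Polycomb subunit genes, and 91 members (43.3%) were in none of the lists.

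**Figure D4:**
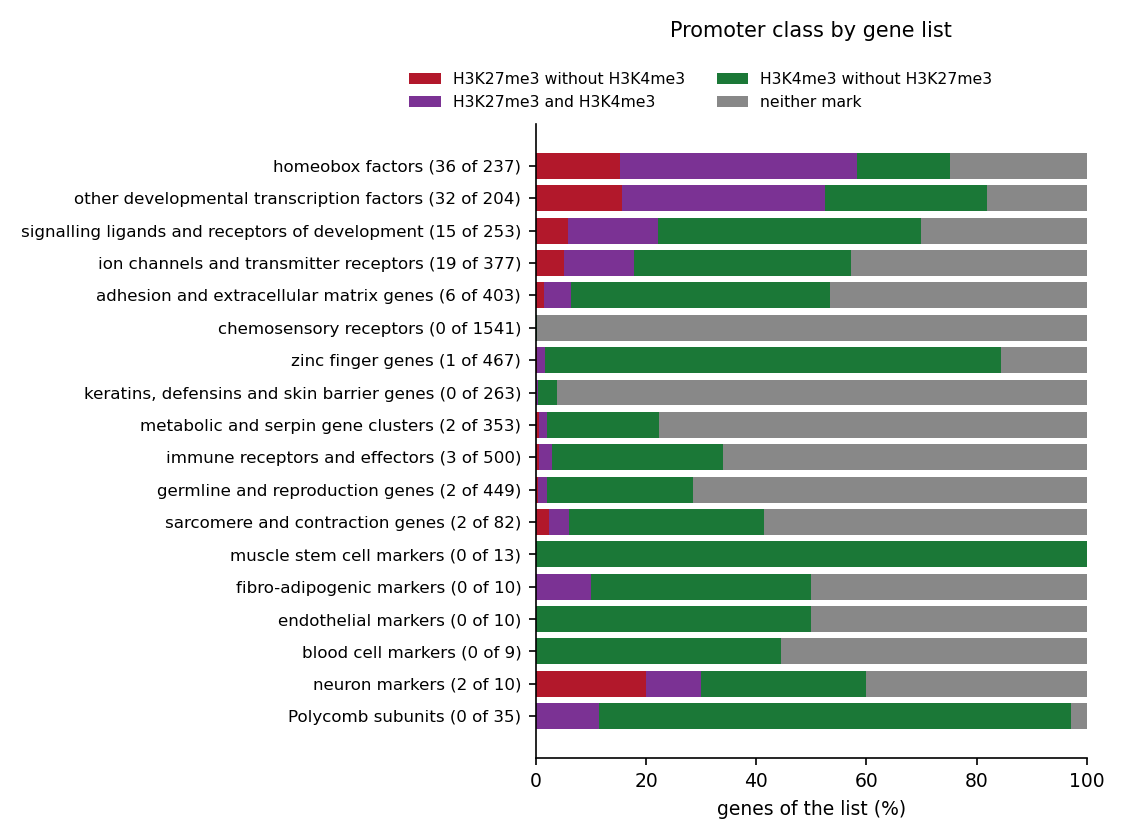
Percentage of the genes of each list (y axis, with the number of H3K27me3-only members of the list size in brackets) in the 4 promoter classes (x axis, colours). The red segment of H3K27me3-only promoters is 15.2% of homeobox factors and 15.7% of other developmental factors, and is missing for MuSC markers, which all have H3K4me3 alone.

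The members were spread over the autosomes and clustered in places. Chromosome 2 held 34 of them (16.2%, beside 8.40% of all protein-coding genes), chromosome 11 held 22 and chromosome 5 held 20. Chromosome X held 1 and chromosome Y held 0, together 0.476% of the members beside 5.16% of all protein-coding genes. Genes with both marks were also few there, with 6 of the 845 on X and 0 on Y. There were 21 runs of members whose starts lay within 200 kb of the next, with 51 members in all. The nearest start of a gene with both marks lay at a median of 343 kb from the members. Of the members, 44 (20.95%) had one within 50 kb, beside 5.46% of all protein-coding genes, 22.4% of genes with both marks, 5.82% of genes with H3K4me3 alone and 2.85% of genes with neither.

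Of the runs, 5 held at least 3 members. The run with the most members was at the Hoxd cluster, where *Evx2*, *Hoxd12*, *Hoxd11*, *Hoxd10* and the gene model *Gm28230* spanned 67.2 kb of chromosome 2 (chr2:74659557-74726728). *Hoxd11* had folds of 5.63 and 11.98, the highest H3K27me3 value of any member in replicate 2. *Hoxd10* had 5.25 and 6.85 and *Hoxd12* 4.88 and 5.48. Some peaks of *Hoxd12* also lay in the windows of *Hoxd13*, and some of *Hoxd10* in those of *Hoxd9*. *Hoxd13* and *Hoxd9* had both marks, so the cluster did not carry H3K27me3 alone throughout. *Gm28230* had 3.38 and 3.42, and all of its peaks lay in the windows of *Hoxd4*, which had both marks. At the Hoxb cluster, *Hoxb13*, *Hoxb6*, *Hoxb1* and the T cell adaptor gene *Skap1* formed a run of 270 kb (chr11:96194316-96464593). *Hoxb6* had 5.25 and 6.503, with H3K4me3 in replicate 1 only. Some of its H3K27me3 peaks also lay in the windows of *Hoxb5* and *Hoxb7*, which had both marks. *Hoxb13*, with 4.88 and 4.79, *Hoxb1*, with 4.13 and 4.79, and *Skap1*, with 3.75 and 3.76, had neither H3K4me3 nor ATAC-seq peaks.

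*Chat* and *Slc18a3*, the acetylcholine synthase and vesicular transporter genes that share a locus, had the same peaks, with folds of 3.75 and 4.11. These peaks did not overlap between the replicates, and in replicate 1 the −log10 q-value was 0.934. Both genes lay in 1 run with *Prrxl1*, a sensory neuron homeobox gene with 4.50 and 5.13 (chr14:32464850-32599407). *Wnt1* and *Dhh* ran on to *C1ql4*, a secreted C1q-like protein gene with 5.63 and 6.16. *Tnfrsf25*, with 3.38 and 3.42, *Hes2*, with 4.50 and 4.79, *Hes3*, with 5.25 and 4.30, and *Rnf207*, with 3.38 and 4.45, spanned 203 kb of chromosome 4. *Hes2* and *Hes3* encode bHLH repressors. *C1ql4*, *Hes2* and *Tnfrsf25* had H3K4me3 in replicate 1 only. In all, 30 members shared an H3K27me3 peak with the windows of another protein-coding gene, and 14 shared every peak.

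The ratio of observed to expected CG in the 3 kb windows had a median of 0.394 (quartiles 0.315 and 0.471) for members, 0.406 for genes with both marks, 0.321 for genes with H3K4me3 alone and 0.176 for genes with neither. From 250 bp before to 50 bp after the 5′ end of the gene, the medians were 0.564, 0.705, 0.738 and 0.186 in the same order. Members thus had a higher median than genes with H3K4me3 alone over the windows and a lower one at the start. Within 1 kb of the 5′ end the medians were 0.546, 0.649, 0.613 and 0.181. The strongest H3K27me3 peaks of the members had median ratios of 0.674 and 0.6496 in replicates 1 and 2, and those of genes with both marks 0.678 and 0.660. A stretch of 500 bp with at least 55% GC and a ratio of at least 0.65 lay near a start of 195 members, or 92.9%, beside 98.9% of genes with both marks, 91.0% of genes with H3K4me3 alone, 12.4% of genes with neither and 61.2% of all protein-coding genes. The other 15 included *Clec5a*, *Dhh*, *Hoxb13* and *S1pr5*, and *Clec5a* had the lowest ratio of all members, 0.157. ATAC-seq peaks in both replicates were found at 114 of the 195 (58.5%) and 8 of the 15 (53.3%).

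**Figure D5:**
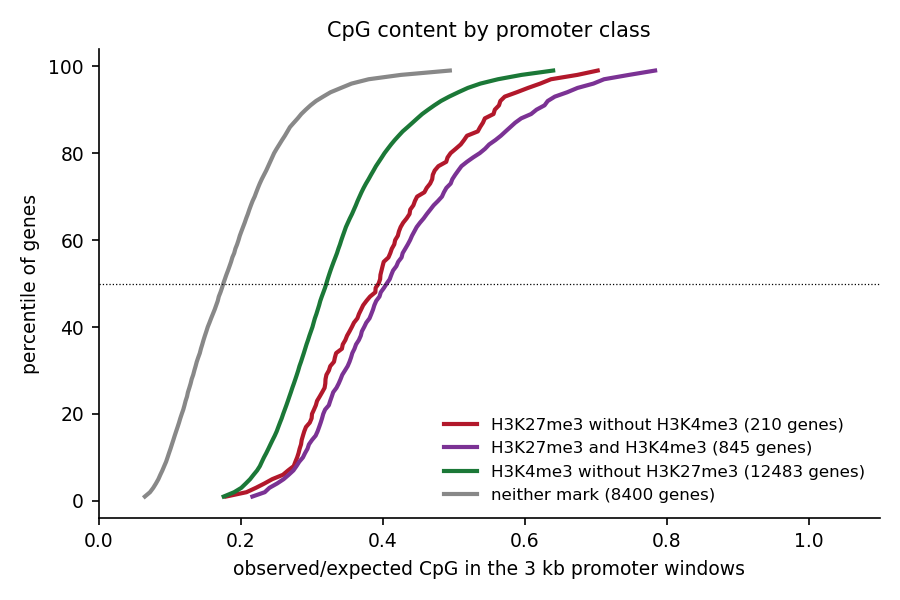
Percentile of genes (y axis) against the ratio of observed to expected CG in the 3 kb windows (x axis), with 1 line per promoter class. The line of H3K27me3-only promoters (median 0.394) runs close to that of genes with both marks (0.406) and to the right of genes with H3K4me3 alone (0.321) and with neither mark (0.176).

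Because genes of neurons were among the members, the windows were searched for letters of RE1, the element bound by the repressor REST, which keeps neuronal genes silent in other tissues. The search was chosen after the members had been seen. It asked for CAGCACC, any 2 bases, and GGACAG, on either strand. These letters were found in the windows of 17 members (8.10%), of 2.25% of genes with both marks, 0.521% of genes with H3K4me3 alone, 0.690% of genes with neither mark and 0.725% of all protein-coding genes. Genes differ in their number of start sites and so in the length searched, and the part of this in the shares was not tested. The 17 genes had 17 distinct matches, since *Chat* and *Slc18a3* share 1 and *Vstm2l* has 2. Of these matches, 10 lay under ATAC-seq peaks in both replicates, and 2, at *Fbll1* and *Gad1*, lay under an H3K27me3 peak in either replicate. Of the accessible ones, 9 are printed, because they show where the letters and the open chromatin coincide. They read in the direction of the element on mm10, with the searched letters in capitals.
Bsx, chr9:40873867-40873887: attCAGCACCgcGGACAGatc
Lhx3, chr2:26208273-26208293: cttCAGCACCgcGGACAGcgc
Kcnk12, chr17:87798583-87798603: cgtCAGCACCgcGGACAGcgc
Prmt8, chr6:127767975-127767995: attCAGCACCagGGACAGcgc
Fbll1, chr11:35799055-35799075: agtCAGCACCagGGACAGcta
Elfn2, chr15:78713180-78713200: cccCAGCACCttGGACAGagc
Hes3, chr4:152287099-152287119: aggCAGCACCacGGACAGcgc
Vstm2l (farther match), chr2:157913274-157913294: tttCAGCACCacGGACAGctc
Vstm2l (nearer match), chr2:157913513-157913533: gttCAGCACCgtGGACAGatc
The *Lhx3* match lay in an untranslated region of that gene, 13 bp from a start, under ATAC-seq peaks of 10.5 and 13.8-fold. The *Vstm2l* matches lay 1376 and 1137 bp upstream of the start. The *Bsx* match lay 257 bp upstream of the start, outside any gene, under peaks of 13.2 and 11.7-fold. The matches at *Kcnk12*, a potassium channel gene, and *Fbll1* also lay upstream, by 592 and 174 bp, and that at *Hes3* overlapped a coding exon. The *Prmt8* match was intronic, 77 and 92 bp from the nearest H3K27me3 peaks of replicates 1 and 2. At *Gad1* the match lay in an intron under an H3K27me3 peak in replicate 1 and under an ATAC-seq peak of 4.41-fold in replicate 2. Of the genes with printed matches, *Kcnk12*, *Fbll1* and *Elfn2* had H3K4me3 in replicate 1 only. A match is a description of the letters and does not show that REST was bound.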

How the data were processed

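The 8 deposited peak lists were used. According to the methods and the submitters' processing notes, the authors trimmed reads with Trim Galore 0.6.10, aligned them to mm10 with BWA 0.7.17-r1188, filtered them with SAMtools 1.5, shifted ATAC-seq reads with deepTools 3.5.5 and called peaks in each library with MACS2 2.2.6. Each deposited list gives the fold, which is the authors' ratio of summit signal over local background. In the deposited lists the p-value and q-value are given as −log10, and the authors' score was not used. H3K27me3 was called with a p-value limit, and the other lists with a q-value limit. The lists hold no read numbers, and intervals that rest on depth were therefore not computed, as the depth is unknown. A promoter without a listed peak may hold signal below the limit.

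Overlap was counted from 1 bp between peaks on the 21 assembled chromosomes and windows of 3 kb around every start site of GENCODE M21. Summed peak widths include parts outside the windows. The code was tested on simulated data. All comparisons between classes are descriptions without a test. The members and gene lists were chosen with earlier results of these data known. Genes were named as follows: the 10 members without H3K4me3 highest by the lower H3K27me3 replicate, all members with H3K27ac in both replicates, the highest 4 of each gene list (all of lists with 1 or 2), the 5 with the highest H3K4me3 in 1 replicate, all in runs of at least 3, those nearest the window edge, and the 5 widest. Some genes and sequences that this rule or the searches gave are not reported here. Others, such as the genes with extreme ATAC-seq values, close H3K4me3 or RE1 letters, were chosen after their values were seen. The alternatives tried were windows of 1 and 5 kb, a q-value limit of 0.05, H3K4me3 absent from both replicates, summits, 5′ ends only, and each replicate alone. H3K4me3 within 5 kb, overlapping H3K27me3 peaks and CG within 1 kb were added after seeing the data. Python 3.11.15, pandas 2.3.3, numpy 2.4.6, scipy 1.17.1, pysam 0.24.0 and matplotlib 3.10.9 were used.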

Additional observations from a re-analysis of the deposited data

How the results depend on the processing

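The number of members was 210 and lay between 190 and 223 with windows of 1 or 5 kb, summits, 5′ ends only or H3K4me3 within 5 kb. Of the 207 found with 1 kb windows, 181 were among the 210. It was 140 with q-values of at most 0.05, 172 with overlapping H3K27me3 peaks, and 133 where H3K4me3 had to be missing from both replicates, since the genes with it in 1 replicate are then left out. With 1 replicate of each library the number was 164 to 374. The ATAC-seq share of 58.1% was 42.03% with windows of 1 kb and 55.9% to 73.8% with 1 replicate. The H3K27ac share of 0.476%, 1 gene, was 0.483% with 1 kb windows, 0.493% with 5 kb, 0.714% with the q-value limit, 0.926% with summits, 0% where H3K4me3 had to be missing from both replicates and with 5′ ends only, 0.526% with H3K4me3 within 5 kb, 0.581% with overlapping peaks, and 0% to 0.535% with 1 replicate. The median CG ratio of 0.394 was 0.546 within 1 kb of the 5′ end and 0.338 to 0.371 with 1 replicate. The share on X and Y of 0.476% was 0% with the q-value limit, with H3K4me3 missing from both replicates, with 5′ ends only and with overlapping peaks, and 0% to 0.802% with 1 replicate. Apart from the settings that select by construction, the cause of these shifts was not tested. No paired analysis was possible because the results come from no test. The 12483 genes with H3K4me3 alone include 607 with H3K27me3 in 1 replicate. Among the 8400 genes with neither mark, 420 had H3K4me3 in 1 replicate and 201 had H3K27me3 in 1 replicate.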

Other observations

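An annotated lincRNA, antisense or other long noncoding gene started within 3 kb of a start site of 36 members (17.1%), beside 24.9% of genes with both marks, 15.4% of genes with H3K4me3 alone, 5.82% of genes with neither mark and 12.1% of all protein-coding genes. Several were named after the member they face, such as *Evx1os*, *Ptf1aos*, *Nr5a1os*, *Gad1os*, *Rbm46os* and *Otx2os1*. The libraries do not tell which of the genes a shared peak belongs to. A microRNA gene started within 3 kb of 2 members, *Mir10b* beside *Gm28230* in the Hoxd cluster and *Gm24197* beside *Mast1*.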
